A study of Mus musculus with 2 samples.

Results

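Rab GTPases, the largest branch of the Ras superfamily of small GTP-binding proteins, were followed in RNA bound to the chromatin of macrophages exposed to lipid A for a second time. Members were all genes with a symbol of the form Rab plus a number, with or without a paralogue letter, that have at least 1 annotated protein-coding transcript. This rule, which used no measured value, gave 59 of 55536 annotated genes, among 22028 protein-coding genes. The cells were primary macrophages derived from C57BL/6J mouse bone marrow; macrophages are phagocytes that engulf microbes and debris. Both samples received 100 ng/ml lipid A, the part of bacterial lipopolysaccharide that Toll-like receptor 4 senses, for 12 h, then 12 h without it and 75 min with 100 ng/ml again. The 2 libraries, biological replicates 1 and 2 of this 1 condition, were made from 250 and 500 ng of RNA depleted of ribosomal RNA. They carried the same donor entry and no statement of age or sex. Unexposed or singly exposed cells are not analysed here: every value is a level after restimulation, and the spread between the libraries may in part be technical. In bulk RNA, fewer cells that use a gene and less RNA per cell cannot be told apart.

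A Rab protein is a molecular switch. Bound to GTP it sits on a membrane of a given compartment and recruits effectors such as tethers, motors and sorting adaptors; bound to GDP it is carried through the cytosol by a GDP dissociation inhibitor (GDI). Guanine nucleotide exchange factors (GEFs) turn the switch on, GTPase-activating proteins (GAPs) turn it off, and a geranylgeranyl lipid added to the C terminus anchors it. In macrophages Rab proteins direct phagosome maturation, the delivery of Toll-like receptor 4 to the surface and to endosomes, and the release of cytokines. RNA of the chromatin fraction holds transcripts that are still being made or processed, so the levels given here are not levels of cytoplasmic mRNA or of protein.

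Replicate 1 held 18445009 expected counts (reads assigned to a gene, with shared reads divided by estimation) and replicate 2 held 17686824. Levels are given as TPM, each transcript's share of the library after division by its length, so they can be compared between genes; errors are SDs with n = 2, and coordinates are in mm10. All 10 macrophage markers reached 1 TPM in both libraries, with a summed level of 1050.2 TPM in replicate 1 and 640.2 TPM in replicate 2. None of 19 markers of T, NK and B cells, neutrophils, fibroblasts and epithelial cells did, and they summed to 0.62 and 0.92 TPM. By a second program, which assigned the reads to transcripts without aligning them (alignment-free), 4 of the 19 did (Cd8a, Ms4a1, Mpo and Col1a1), with a sum of 8.44 and 10.1 TPM. Cd3e, Cd3g, Ncr1, Nkg7, Cd79a, Ly6g, Mpo, Elane, Pdgfra and Epcam were at 0 by alignment in both libraries. Most of the alignment-based counts of that list lay on the collagen genes Col1a1 (15 and 39 counts) and Col1a2 (17 and 23 counts).

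Of the 59 Rab genes, 32 reached 1 TPM in both libraries, 3 in one of them (Rab23, Rab29 and Rab34) and 24 in neither. Among all protein-coding genes, 40.1% reached 1 TPM in both. At 10 TPM in both libraries stood 20 Rab genes, and 17.9% of protein-coding genes. The median level over all 59 was 2.52 ± 0.191 TPM, against 0.29 ± 0.0141 TPM over all protein-coding genes. Over the 32 members at 1 TPM it was 15.4 ± 0.428 TPM, against 9.37 ± 0.262 TPM over the 8829 protein-coding genes at that level. The whole family summed to 685.4 TPM in replicate 1 and 768.8 TPM in replicate 2, which was 0.264% and 0.275% of the TPM of all protein-coding genes. By counts, it took 22771 of 18388793 counts on annotated genes in replicate 1 (0.124%, 95% Wilson interval 0.122% to 0.125%) and 24891 of 17640464 in replicate 2 (0.141%, 0.139% to 0.143%). Such intervals cover counting error only.

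The level of Rab14 was above that of every other member in both libraries. Rab14, which works between the trans-Golgi network, recycling endosomes and phagosomes (chr2:35180205-35201120, minus strand), had 145 TPM in replicate 1 and 156 TPM in replicate 2, from 5509 and 5632 counts. Its mean of 150.5 ± 8.21 TPM was 20.7 ± 0.552% of the TPM of the family. The 5 highest genes, Rab14, Rab12, Rab8b, Rab1a and Rab24, held 45.7 ± 0.930% of it, and the 10 highest, with Rab10, Rab20, Rab11a, Rab5b and Rab32, held 65.8 ± 2.11%. The lead over Rab12, 61.6 ± 5.92 TPM by alignment, was smaller by the alignment-free program, with 138.3 TPM for Rab14, 105.3 for Rab12 and 90.5 for Rab11a. At the other end, Rab17, Rab3b, Rab9b and Rab42 had 0 alignment-based counts in both libraries. For that program, this allows up to 1.63e-05% of the counts of replicate 1 and 1.70e-05% of those of replicate 2 (3 counts each). The alignment-free program gave Rab9b 360.2 and 462.1 counts and Rab3b 13 and 14 counts from the same libraries, and Rab17 and Rab42 0. A further 14 members had under 10 alignment-based counts in both libraries, so their order is not resolved by these counts.

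**Figure D1:**
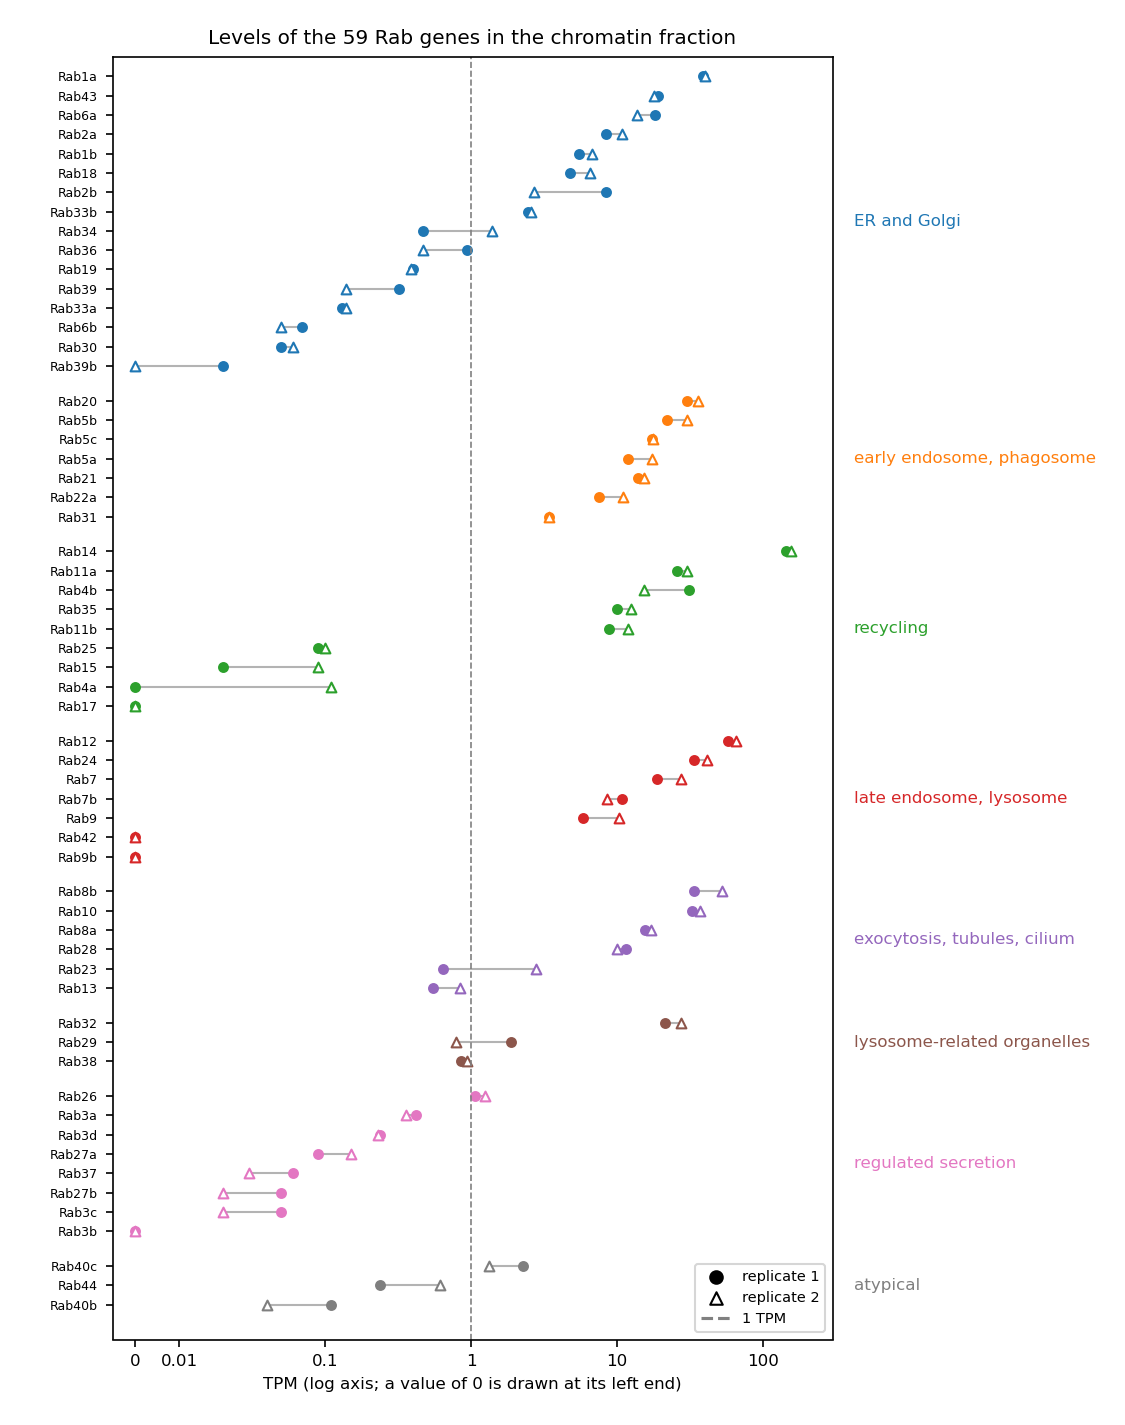
TPM of each of the 59 Rab genes (log axis, with 0 drawn at the left end) in replicate 1 (filled circles) and replicate 2 (open triangles), grouped by the compartment each is best known for and ordered by mean within a group. All 7 genes of the early endosome and phagosome group lie right of the dashed line at 1 TPM in both libraries, while Rab26 alone does so among the 8 genes of regulated secretion by the alignment-based values plotted here (6 of 8 by the alignment-free program).

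Neighbours in the order of alignment-based levels were mostly not separated. Of the 30 pairs of neighbours in which both genes reached 1 TPM in both libraries, 7 had ranges that did not overlap. These were Rab14 over Rab12, Rab12 over Rab8b, Rab43 over Rab5c, Rab5c over Rab8a, Rab21 over Rab35, Rab31 over Rab33b and Rab33b over Rab40c. From Rab8b (42.9 TPM) down to Rab43 (18.5 TPM) every gene overlapped the next. By the alignment-free program Rab5c, at 43.2 and 34.6 TPM, lay above Rab43, at 23.2 and 18.8 TPM.

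The early endosome and phagosome group was the only role group with all members in use at 1 TPM in both libraries, 7 of 7, with a median of 14.7 ± 2.51 TPM. Rab20, which is associated with phagosome maturation in macrophages, led it by alignment with 30.02 and 35.96 TPM. Rab5b had 22.04 and 30.45 TPM and Rab5c 17.5 and 17.6 TPM; they and Rab5a are the paralogues that govern fusion of early endosomes. By alignment, the values of Rab20 and Rab5b overlapped between the libraries, and both lay above Rab5c. The alignment-free program reversed this, with Rab5c at 43.2 and 34.6 TPM, Rab20 at 24.5 and 29.8 and Rab5b at 22.1 and 28.5. Rab21 (14.6 ± 1.05 TPM) and Rab22a (9.22 ± 2.45 TPM), which act in integrin traffic and in endosomal sorting, lay lower. Rab31, a relative of Rab22a, was the lowest at 3.45 and 3.41 TPM.

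Of the late endosome and lysosome genes, 5 of 7 were at 1 TPM in both libraries, and 6 of 7 by the alignment-free program. Rab12, which sends receptors from recycling endosomes to lysosomes, had 57.4 and 65.8 TPM, the second level of the family. Rab24, linked to autophagosome clearance, had 33.8 and 41.6 TPM, and Rab7, the main switch of the late endosome, 19.0 and 27.6 TPM. Rab7b, which takes part in traffic from endosomes to the trans-Golgi network and lysosomes, had 10.8 and 8.51 TPM. Rab9, needed for return of mannose 6-phosphate receptors to the Golgi, had 5.84 and 10.3 TPM, and its paralogue Rab9b was, like Rab42, at 0 by alignment, but at 3.41 and 4.85 TPM by the alignment-free program.

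Recycling genes showed the widest range, with 5 of 9 at 1 TPM in both libraries. Below Rab14 came Rab11a, the switch of the perinuclear recycling endosome, with 25.9 and 30.1 TPM. Rab4b, of the fast recycling route, had 31.1 and 15.3 TPM, so its libraries lay far apart and enclosed both values of Rab11a. Rab35 (11.3 ± 1.82 TPM) and Rab11b (10.4 ± 2.18 TPM) completed the used part. Rab25 and Rab17, known from epithelial cells, had 1 count in each library and 0 counts, respectively, and Rab15 and Rab4a had at most 4 counts in a library.

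In the group of exocytosis, tubules and cilium, 4 of 6 genes reached 1 TPM in both libraries. Rab8b and its relatives Rab10 and Rab8a carry cargo from the Golgi and recycling endosomes to the surface. Rab8b had 33.6 and 52.2 TPM, Rab10 had 32.7 and 37.2 TPM, and Rab8a had 15.6 and 17.1 TPM. Both values of Rab8a lay below all 4 values of the other pair by alignment. By the alignment-free program Rab8a had 29.7 and 29.6 TPM, above the 29.4 TPM of Rab8b in replicate 1. Rab28, a cilium-associated member, followed at 10.8 ± 1.05 TPM. Rab23, an antagonist of Hedgehog signalling, differed between the libraries at 0.64 and 2.80 TPM (28 and 37 counts), and Rab13, known from tight junctions, was the lowest at 0.55 and 0.84 TPM.

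The ER and Golgi group was the largest and mixed, with 8 of 16 genes in use by the same measure and a median of 1.73 ± 0.209 TPM. Rab1a, required for transport from the ER to the Golgi, led with 38.9 and 40.2 TPM. Rab43, of the Golgi, had 19.1 and 17.9 TPM, and Rab6a, of transport within and back from the Golgi, had 18.2 and 13.8 TPM. Rab2a, Rab1b, Rab18, Rab2b and Rab33b lay between 9.61 and 2.52 TPM on average. Rab39b, known from neurons, was the lowest, with a single count in replicate 1 and 0 in replicate 2.

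Except for Rab32, genes of specialised organelles were low. Rab32, of lysosome-related organelles and of defence against intracellular bacteria, had 21.5 and 27.4 TPM. Its group members Rab29 (1.88 and 0.79 TPM) and Rab38 (0.85 and 0.94 TPM) did not reach 1 TPM in both. Of the 8 regulated secretion genes, Rab26 alone did by alignment, at 1.06 and 1.24 TPM from 22 and 15 counts; by the alignment-free program 6 of the 8 did. Rab3a and Rab3d, known from synaptic and secretory vesicles, had 0.39 ± 0.0424 and 0.24 ± 0.00707 TPM. Rab27a, which docks secretory granules and exosomes, had 2 counts and 1 count, and Rab3b was the lowest with 0. The group summed to 1.97 and 2.05 TPM by alignment and to 12.2 and 14.4 TPM by the alignment-free program, so its call depends on the program. Among the 3 atypical members, Rab40c, of ubiquitin ligase complexes, had 2.29 and 1.33 TPM, Rab44 had 0.24 and 0.61 TPM, and Rab40b 0.11 and 0.04 TPM.

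Most paralogues of the same number were used unequally. The numbering defines 14 families with 31 members, of which 6 had every member in use at 1 TPM, 5 had 1 such member and 3 (Rab3, Rab27 and Rab39) had none, again in both libraries and by alignment; Rab3b, Rab3c, Rab3d and Rab27b reached 1 TPM by the alignment-free program. In the order of mean TPM by alignment, the leading and the next member had ranges apart in all 14 families. In Rab3, Rab27 and Rab39 these values rest on 15 counts or fewer per gene and library. By the alignment-free program these ranges overlapped in Rab7 and Rab8, and Rab5c, Rab3c and Rab27b led their families. By alignment, Rab1a exceeded Rab1b 7.08-fold in replicate 1 and 5.94-fold in replicate 2 (5.5 and 6.77 TPM for Rab1b). Rab11a exceeded Rab11b 2.91-fold and 2.51-fold. Rab8b exceeded Rab8a 2.16-fold and 3.06-fold by alignment, and Rab7 exceeded the more distant Rab7b 1.76-fold and 3.24-fold. The alignment-free program gave Rab8b 29.4 and 44.6 TPM and Rab8a 29.7 and 29.6 TPM. It gave Rab7 38.0 and 53.5 TPM and Rab7b 38.1 and 24.4 TPM, so neither lead held in replicate 1.

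The sharpest contrasts were between a used and a nearly silent copy. Rab6a stood beside Rab6b at 0.07 and 0.05 TPM (6 and 4 counts). Rab4b stood beside Rab4a, which had 0 counts in replicate 1 and 2 counts in replicate 2, and Rab9 beside Rab9b, with 0 counts in both by alignment (Rab9 at 34.1 and 44.7 TPM and Rab9b at 3.41 and 4.85 TPM by the alignment-free program). Rab33b, a Golgi member that binds the autophagy factor Atg16l1, had 2.45 and 2.59 TPM against 0.13 and 0.14 TPM for Rab33a. In the Rab5 trio Rab5b, leading by alignment, held 44.7 ± 2.58% of the TPM of the trio, with Rab5a at 11.9 and 17.4 TPM. By the alignment-free program Rab5c led, with 43.2 and 34.6 TPM against 22.1 and 28.5 TPM for Rab5b. Coding isoforms alone also put Rab5c first, at 17.5 TPM on average against 10.01 TPM for Rab5b. By alignment, Rab2a and Rab2b were almost level in replicate 1, at 8.43 and 8.37 TPM. In replicate 2 they were 3.97-fold apart, at 10.8 and 2.72 TPM.

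**Figure D2:**
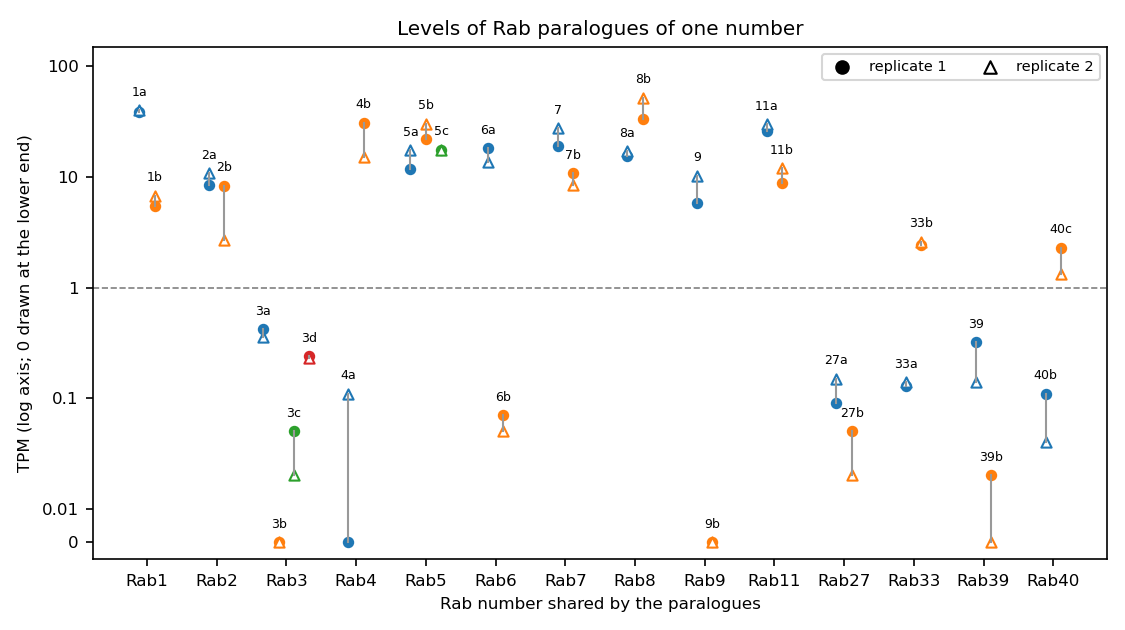
Alignment-based TPM (log axis, 0 drawn at the lower end) of the 31 genes that share a number with another, in replicate 1 (filled circles) and replicate 2 (open triangles), the letter beside each point naming the gene. Rab4a, Rab6b, Rab9b, Rab33a and Rab40b lie below the dashed line at 1 TPM while their paralogues lie above it, and every member of the Rab3, Rab27 and Rab39 families lies below it.

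Isoforms that keep intron sequence held part of the signal. The annotation gives the 59 genes 256 transcripts, 155 of them protein coding, 53 of the retained-intron class, 35 processed transcripts (noncoding) and 13 subject to nonsense-mediated decay (NMD). Retained-intron isoforms held 32.3 ± 2.62% of the TPM of the family, against 37.7 ± 0.252% over all protein-coding genes, and 19.6 ± 2.61% once Rab14 was set aside. By counts these shares were 28.2 ± 2.46% for the family, 25.0 ± 0.635% over all protein-coding genes and 9.88 ± 1.02% without Rab14, so whether the family lay below or above all genes depended on the measure. Protein-coding isoforms held 59.7 ± 3.91%. Of the 32 genes at 1 TPM in both libraries, 24 were led in mean TPM by a coding isoform, 6 by a retained-intron isoform, 1 by an NMD isoform and 1 by a processed transcript. The NMD isoform was Rab2b-205, with 3.64 counts in replicate 1 and 0 in replicate 2, and the processed transcript was Rab1a-204. By counts, coding isoforms led both genes, with 59.7% on Rab2b-201 and 66.7% on Rab1a-206. Only annotated isoforms could receive reads, so a gene without an annotated retained-intron isoform shows none, and intron reads of an unspliced transcript can be assigned to such an isoform where it is annotated.

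A share could be formed for the 14 members that had a mean of at least 1 TPM and a retained-intron isoform. Such an isoform is annotated for 64.6% of the protein-coding genes at that level. The median share of gene TPM was 49.1 ± 1.94%, against 45.1 ± 0.606% over 5998 protein-coding genes, and 7 of the 14 exceeded 50%, against 41.8% of those genes. The 7 were Rab14 (81.0 ± 1.00%), Rab8a (76.6 ± 1.64%), Rab23 (70.6 ± 4.03%), Rab6a (63.2 ± 11.1%), Rab5b (62.5 ± 5.70%), Rab4b (60.5 ± 2.36%) and Rab5a (54.0 ± 0.0819%). Counts gave another picture for genes whose retained-intron isoform is short. By counts the share was 87.9% in Rab14 and 62.3% in Rab5a, but 18.3% in Rab8a and 16.3% in Rab6a, and its median over the 14 was 39.8%.

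The order of the genes changed when protein-coding isoforms alone were counted. Rab14 then had 24.3 and 29.9 TPM and moved from rank 1 to rank 4, behind Rab8b (42.9 TPM), Rab10 (34.9 TPM) and Rab20 (32.99 TPM), each of which has a single annotated isoform. Rab12 fell to rank 5 with 26.1 ± 4.12 TPM. Rab1a moved from rank 4 to rank 13 (14.5 ± 1.56 TPM), with its noncoding isoforms Rab1a-204 and Rab1a-205 at 14.95 and 10.18 TPM on average. Rab4b moved from rank 12 to rank 28 and Rab8a from rank 15 to rank 26.

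**Figure D3:**
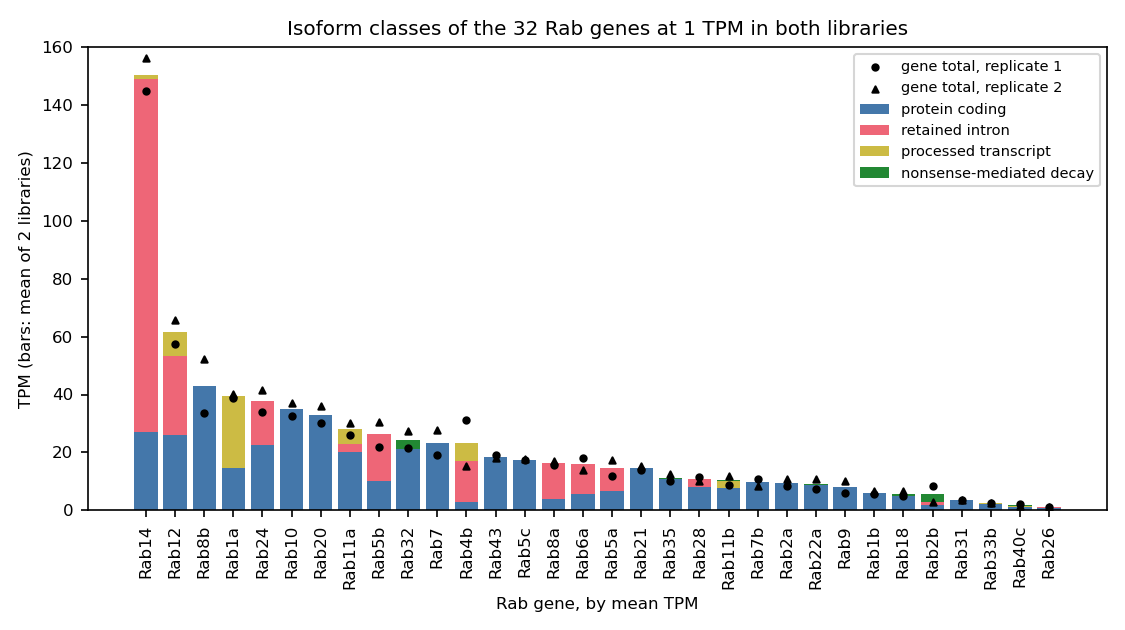
Mean TPM on each isoform class (stacked bars from 0) for the 32 Rab genes at 1 TPM in both libraries, with the gene total of replicate 1 (circles) and replicate 2 (triangles). Retained-intron isoforms make up most of the Rab14 bar and none of the Rab8b, Rab10 and Rab20 bars.

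The retained-intron isoforms can be placed at splice donors, the exon ends at which a coding isoform is cut. The 12 genes at 1 TPM in both libraries that have such isoforms hold 24 of them, and 20 of the 24 read through at least 1 donor used by a coding isoform. The donors numbered 22, counted once per gene, and all 22 began with GT. A median of 35.2% of the bases of these isoforms lay outside every coding exon of the gene, from 16.3% to 96.7%. Shown here are the donors read through by such isoforms with a mean of at least 10 TPM, and by Rab5a-202 (7.94 TPM), described below. Each is given as 20 bases of mm10 on the gene's strand, 10 of exon and 10 of intron, with the intron's initial GT in capitals. Rab6a-204 and Rab14-204, at 10.3 and 10.2 TPM, read through none. The donors mark annotated places where these isoforms run on into an intron, and read coverage at them was not examined.
Rab14-210, chr2:35200750-35200769, minus strand: aaccccccagGTaaccaagg
Rab14-209, chr2:35189890-35189909, minus strand: acatcaccagGTaagatgat
Rab14-208, chr2:35186664-35186683, minus strand: tccaaacactGTaagtcaac
Rab14-205 and Rab14-202, chr2:35183383-35183402, minus strand: gcgcaaaaacGTaagtatgg
Rab14-202, chr2:35183734-35183753, minus strand: gaggaaaacgGTgggtttga
Rab12-203, chr17:66506023-66506042, minus strand: tacagatctgGTaagtagca
Rab12-204, chr17:66498009-66498028, minus strand: aggagaaaagGTgcgtgagt
Rab5b-202, chr10:128682814-128682833, minus strand: ggagtatgaaGTaaggtggc
Rab5a-202, chr17:53479599-53479618, plus strand: cgcggcccagGTaagccgcc
Rab8a-202, chr8:72175920-72175939, plus strand: gggagaaaagGTaggtgttg
Rab4b-205, chr7:27176148-27176167, minus strand: gagaataagtGTgagtttct

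In Rab14 the counts on retained-intron isoforms were divided among isoforms with donors at different places of the gene. Rab14-210 runs 4780 bases beyond its donor and took 2205.9 counts in replicate 1 and 2352.1 in replicate 2, 40.9% of the counts of the gene. Rab14-209 took 20.5% and Rab14-202, which reads through 2 donors, 19.4%. The full-length coding isoform Rab14-201 had 484.6 and 781.6 counts, or 10.01 and 17.78 TPM. In Rab5a, Rab5a-202 holds 2904 intron bases after its donor and had 328.1 and 436.2 counts, against 198.6 and 263.5 for the coding Rab5a-201. Rab8a-202, by contrast, holds 128 intron bases and had 57.4 and 62.5 counts, against 281.6 and 253.5 for Rab8a-201; its lead in TPM comes with a length of 542 bases against 4550.

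Short isoforms also accompanied the gaps in TPM between the libraries in Rab2b and, in part, in Rab4b. Rab2b-205, an NMD isoform of 270 bases, had 3.64 counts and 4.05 TPM in replicate 1 and 0 in replicate 2, beside gene values of 8.37 and 2.72 TPM from 160.1 and 121.1 counts. Rab4b-204, a noncoding isoform of 274 bases, had 7.27 counts and 7.73 TPM in replicate 1 and 1.08 counts and 1.09 TPM in replicate 2. Longer Rab4b isoforms were lower in replicate 2 as well. Rab4b-205 of 1372 bases had 12.69 and 7.46 TPM, and the coding Rab4b-201 of 1192 bases had 4.19 and 1.85 TPM. The noncoding Rab4b-207 and Rab4b-202 went the other way, and the gene had 356 and 193.1 counts. In Rab31, by contrast, TPM was level between the libraries while the counts were 132 and 63. Its isoform Rab31-202 of 555 bases had 1.16 and 2.38 TPM, and Rab31-201 of 3473 bases had 2.29 and 1.03 TPM.

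The libraries were therefore also compared by counts, scaled by TMM, in the 37 members that had 10 counts or more in both. With 1 library on each side this compares those libraries, not conditions. At least 2-fold apart was 1 of the 37, Rab29, a gene near the lower limit, with 27 and 12 counts (log2 ratio of replicate 2 over replicate 1 of -1.04, 95% counting interval -2.15 to -0.01). Among protein-coding genes 6.5% were 2-fold apart. By direction, 0 of the 37 were 2-fold higher in replicate 2 (3.23% of protein-coding genes) and 1 in replicate 1 (3.28%). The counting interval excluded equality in 22 of the 37, against 50.1% of protein-coding genes in either direction. Of the 22, 17 were higher in replicate 2 and 5 in replicate 1. This split by direction was not computed over all protein-coding genes, so it is not read as a trait of Rab genes. The median log2 ratio was 0.16 (SD 0.45 over the 37 genes), against -0.03 (SD 0.53) over 10348 protein-coding genes.

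Rab9 (log2 ratio 0.71, interval 0.37 to 1.06), Rab22a (0.64, 0.51 to 0.77), Rab8b (0.62, 0.55 to 0.70), Rab5b (0.56, 0.41 to 0.70), Rab7 (0.55, 0.39 to 0.72) and Rab5a (0.54, 0.38 to 0.71) were higher in replicate 2. Rab31 (-0.93, -1.39 to -0.49), Rab4b (-0.75, -1.01 to -0.49), Rab40c (-0.68, -1.22 to -0.16) and Rab7b (-0.23, -0.42 to -0.04) were, with Rab29, higher in replicate 1. Rab14, with the most counts, differed by 0.16 (0.11 to 0.22). RNA input, 250 against 500 ng, also differed between the libraries. The 10 macrophage markers went both ways, with Adgre1 at 496.6 and 192.7 TPM, Cd68 at 26.9 and 26.9 TPM and Cd14 at 52.1 and 82.4 TPM. The part of these differences in the ratios was not tested.

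**Figure D4:**
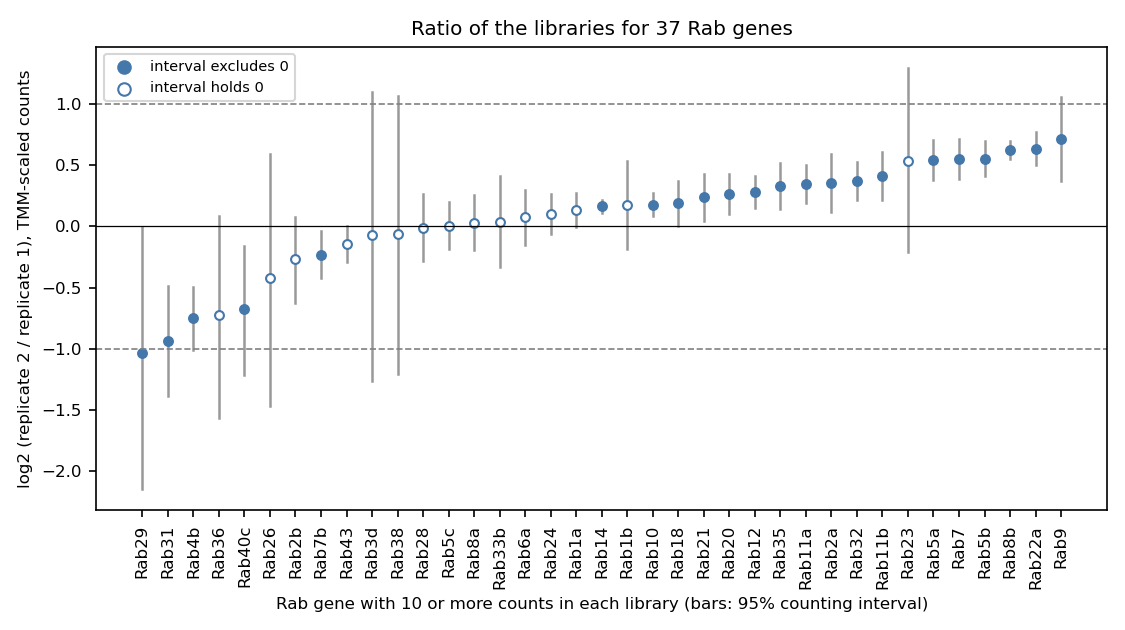
Log2 ratio of replicate 2 over replicate 1 of TMM-scaled expected counts for the 37 Rab genes that had 10 counts or more in both, with 95% counting intervals (bars). Filled points, whose interval excludes 0, number 22, and Rab29 lies at the dashed line of a 2-fold difference.

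Of 121 listed genes that load, switch or read Rab proteins, 94 reached 1 TPM in both libraries, beside 32 of the 59 Rab genes and 40.1% of protein-coding genes. All 7 genes of prenylation and GDP dissociation inhibition did. Gdi2, a GDP dissociation inhibitor, had 41.1 and 41.5 TPM. Rabggtb, a subunit of the enzyme that adds the lipid, had 23.1 and 28.8 TPM, and Rabac1, a prenylated Rab acceptor, was the lowest at 1.94 and 2.16 TPM.

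Among exchange factors 28 of 34 reached this level, with a median of 13.5 ± 1.04 TPM. Dennd1a, an exchange factor of Rab35, had 223.3 and 232.3 TPM, above Rab14. Ric1, of the complex that activates Rab6a, had 193.9 and 181.6 TPM, and Gapvd1, which acts on Rab5, had 117.9 and 109.2 TPM. Dennd5b was the lowest with 6 and 2 counts by alignment, but had 2.08 and 2.24 TPM by the alignment-free program. In contrast to the Rab3 and Rab27 genes it activates, the exchange factor Madd stood at 133.9 and 53.4 TPM by alignment. By the alignment-free program Madd had 167.3 and 84.9 TPM, and Rab3b, Rab3c, Rab3d and Rab27b reached 1 TPM in both libraries. The alignment-based counts of Madd differed between the libraries by -1.26 on the log2 scale (-1.34 to -1.19). This gene was singled out after its values were seen.

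Of the GTPase-activating proteins 26 of 35, and of the effectors 33 of 45, reached 1 TPM in both libraries. Tbc1d2b led the former with 124.3 and 116.4 TPM, followed by Tbc1d13, which acts on Rab35, with 106.5 and 50.1 TPM. Rab3gap2, a subunit of the complex that acts on Rab3 and also activates Rab18, had 73.5 and 72.0 TPM. Sgsm1 had 0 counts by alignment, but 1.30 and 1.82 TPM by the alignment-free program. The highest effectors were the Rab5 adaptor Appl2 (157.7 and 154.1 TPM), the Rab5 tether Eea1 (102.2 and 136.8 TPM) and Ehbp1l1, which binds Rab8 proteins (140.4 and 73.8 TPM). Sytl5, a Rab27 effector, had 0 counts. Sums per list were 1332.7 ± 18.3 TPM for exchange factors and 960.2 ± 9.33 TPM for effectors, against 727.1 ± 58.99 TPM for the 59 Rab genes; these lists differ in size.

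Several Rab genes stood higher when the reads were quantified without alignment. Of the 34 with a mean of at least 1 TPM, 8 had at least 2 times the TPM by that program, against 18.5% of protein-coding genes. Rab11a had 83.1 and 97.8 TPM in place of 25.9 and 30.1, Rab9 had 34.1 and 44.7 in place of 5.84 and 10.3, and Rab18 had 27.2 and 32.96 in place of 4.79 and 6.57. The others were Rab4b, Rab5c, Rab7b, Rab23 and Rab31. In Rab9 the excess lay on Rab9-203, an isoform of 392 bases with 24.8 and 30.6 TPM by the alignment-free program and 0 and 0.52 TPM by the other.

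Of the 27 Rab genes that did not reach 1 TPM in both libraries, 10 did so by the alignment-free program, against 20.2% of such protein-coding genes. They were Rab23, Rab27b, Rab29, Rab30, Rab34, Rab37, Rab3b, Rab3c, Rab3d and Rab9b. Rab34 changed most in level, from 0.47 and 1.39 TPM to 14.2 and 28.5 TPM, of which the 352-base isoform Rab34-207 held 11.8 and 25.4 TPM. Rab9b, with 0 counts by alignment, had 3.41 and 4.85 TPM. Whether these genes were used at 1 TPM therefore depended on the program. All 32 members at that level by alignment were also at it by the alignment-free program.

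**Figure D5:**
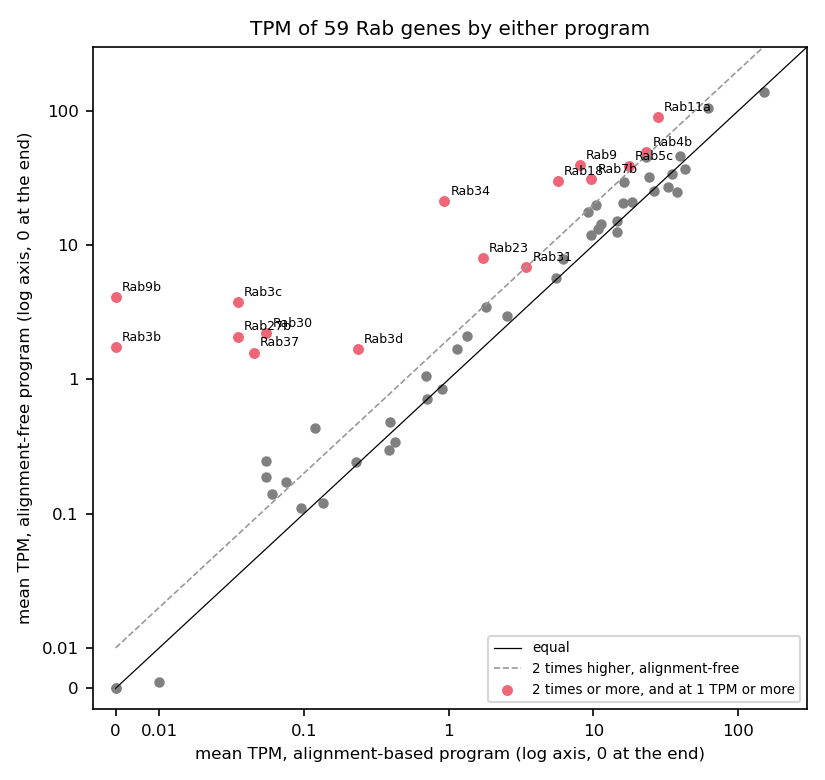
Mean TPM of each of the 59 Rab genes by the alignment-based program (x axis) and the alignment-free program (y axis), both on log axes with 0 at the end. Rab9, Rab11a, Rab18 and Rab34 are among the named points at or above the dashed line of 2 times, and Rab14 lies close to the line of equality at 150.5 TPM on the x axis.

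Some levels rest on exons shared with other genes. Exons of 20 members overlapped exons of another annotated gene, and no source used here states whether counting used strand, so reads of an opposite-strand neighbour may be included. Rab24 shared 62.4% of its exon bases with Prelid1 on the opposite strand, which had 286.9 and 303.2 counts beside 632.1 and 618.8 for Rab24. Rab20 shared 25.6% with the noncoding E230013L22Rik on the opposite strand (510.2 and 548.7 counts, beside 583.8 and 641.3 for Rab20), and Rab6a 19.0% with Mrpl48. Rab2b shared 59.3% with Gm43766, also on the opposite strand (29.9 and 24.9 counts). On the same strand, Rab43 shared 75.4% of its exon bases with the protein-coding model Gm45140 (272.6 and 133.1 counts), and Rab4b 65.0% with Gm21983 (0 and 2.91 counts). Rab26, with 22 and 15 counts, shared 267 exon bases (9.36%) on the same strand with Traf7, which had 1236 and 931 counts. The posterior SD that the authors deposited with each count exceeded 1% of it in 4 members with a mean of at least 10 counts and 10% in none of them.

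Promoter sequence, which the choice of members did not use, was described for genes used at 1 TPM in both libraries by alignment and for others. The others include Rab23, Rab29, Rab34, Rab3b, Rab3c, Rab3d and Rab9b, which reached 1 TPM in both libraries by the alignment-free program. RefSeq windows of 300 bases on GRCm38.p6, from 250 before to 50 after a start site, were at hand for 48 of the 59 genes, 28 at 1 TPM in both libraries and 20 others. For each Rab gene 1 window was used, the nearest to the start of its isoform with the highest TPM, or of the gene at 0 TPM. The distance was largest in Rab6a (26762 bases), Rab2b (3906) and Rab17 (1994). The ratio of observed to expected CpG dinucleotides had a median of 0.777 in the 28, 0.617 in the 20 and 0.384 over 32851 windows of all genes. These 32851 windows were not narrowed by isoform or level. The range of the 28, from 0.406 in Rab32 to 1.18 in Rab6a, overlapped that of the 20. The 250 bases before the start are shown for Rab14, the highest gene (CpG ratio 0.969), for Rab32, the used gene with the lowest ratio, and for Rab42, a gene with 0 counts (0.302), with CpG in capitals.
Rab14, chr2:35201121-35201370, minus strand: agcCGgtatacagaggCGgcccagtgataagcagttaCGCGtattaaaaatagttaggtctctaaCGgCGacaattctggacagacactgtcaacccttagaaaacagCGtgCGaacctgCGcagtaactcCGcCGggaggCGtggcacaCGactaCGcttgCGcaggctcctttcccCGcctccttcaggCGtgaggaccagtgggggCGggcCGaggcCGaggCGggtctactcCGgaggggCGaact
Rab32, chr10:10558208-10558457, minus strand: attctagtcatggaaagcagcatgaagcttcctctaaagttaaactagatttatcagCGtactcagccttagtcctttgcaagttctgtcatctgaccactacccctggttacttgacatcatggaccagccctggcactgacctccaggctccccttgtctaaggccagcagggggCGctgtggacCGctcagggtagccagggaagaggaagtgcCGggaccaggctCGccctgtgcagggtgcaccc
Rab42, chr4:132303357-132303606, minus strand: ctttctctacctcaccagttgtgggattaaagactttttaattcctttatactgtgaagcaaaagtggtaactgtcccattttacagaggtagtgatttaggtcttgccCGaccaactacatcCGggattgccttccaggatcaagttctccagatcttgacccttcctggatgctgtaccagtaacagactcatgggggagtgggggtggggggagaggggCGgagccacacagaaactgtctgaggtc

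These stretches hold 23 CpG in Rab14, 5 in Rab32 and 3 in Rab42. In the full windows, 8 motifs were searched on both strands, and a match is a description of letters, not a bound site. GGGCGG, the GC box, was in 22 of the 28 used and 13 of the 20 other genes, and in 35.7% of all windows. CCAAT was in 17 and 7 genes and 37.4% of all windows, and TATAAA in 1 and 3 genes and 13.6%. CACGTG, the E-box letters bound by Tfeb and Myc family factors, was in 4 and 1 genes and 7.15%. GAGGAAGT, letters of the site of the macrophage factor PU.1, was in Rab32 and Rab2b and 3.20% of all windows. A form of the NF-kappaB site was in Rab28 and Rab9 and 1.63%. TGACTCA, letters of the AP-1 site, was in 0 and 2 genes and 5.202% of all windows, and the direct repeat of interferon response elements in 0 and 1 genes and 3.44%.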

How the data were processed

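Expected counts and TPM per gene and per transcript were deposited by the authors from alignments to mm10 with GENCODE M21, per the submitters' description files. Aligner, counter, versions and strand setting were not given in the sources used here. A posterior SD of each count was deposited beside it, per the file headers. Estimated counts and TPM of a second, alignment-free program were deposited per transcript, per the file headers, and were summed per gene. Entries without a gene name (26345 in number, 0.305% and 0.262% of counts) were left out of library sizes.

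With 1 group of 2 libraries, levels and their spread were computed and no condition was tested. Ratios of rounded expected counts used edgeR's TMM factors (version 4.0.16), a minimum of 10 counts per library and exact Clopper-Pearson counting intervals at 95%. The ratio and share steps were tested on simulated data. Isoform classes came from the transcript names, and overlaps, splice donors and isoform sequences from GENCODE M21. Python 3.11.15, pandas 2.3.3 and R 4.3.3 were used.

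The members and lists were chosen with earlier results of these data known. Every Rab gene could be named; values per library were given for the 3 highest and the lowest of each role group, for genes 2-fold apart and for paralogues, and in the other lists for the 3 highest and the lowest. Some items that this rule would name are not reported here. Alternatives were another scaling (DESeq2 1.42.0 or library totals), other minimums, TPM over protein-coding genes, the alignment-free values, shares of counts, each library alone and, added after seeing the data, coding isoforms alone.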

Additional observations from a re-analysis of the deposited data

How the results depend on the processing

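Of the 59 Rab genes, 32 reached 1 TPM in both libraries, and 33 to 34 did in a single library, 40 with TPM over protein-coding genes, 42 by the alignment-free program, 30 at a 2 TPM minimum and 30 by coding isoforms alone, an alternative chosen after seeing the data (without Rab26 and Rab40c). With at least 1 count in both libraries as the only requirement the number was 53. Of all 22028 protein-coding genes, 8829 reached 1 TPM in both libraries by alignment and 11400 by the alignment-free program. Their number under the other settings is not given here. The median level of 2.52 TPM ranged from 2.45 to 2.72 with either library left out; it was 9.35 with TPM over protein-coding genes, 6.87 by the alignment-free program, 2.00 by coding isoforms and 15.4 over the members at 1 TPM only. The cause of these shifts was not tested, except that the rescaling multiplies every value by 3.86 and 3.57 and the last setting drops the lower genes. The number of genes 2-fold apart between the libraries, 1 (Rab29), was 1 with DESeq2 size factors, 2 with library totals (Rab31 added, log2 ratio -1.01), 7 with at least 1 count in each library, 0 with at least 100 counts and 0 by alignment-free counts. The median retained-intron share of 49.1% was 39.8% by counts, 43.6% by the alignment-free program and 57.3% over members at a mean of 10 TPM. Over the 14 members of the main setting it was 50.6% in replicate 1 and 47.8% in replicate 2. With members chosen anew by the TPM of 1 library alone, it was 47.2% in replicate 1 and 47.8% in replicate 2. The 94 of 121 regulators and effectors at 1 TPM became 97 in either library alone, 104 with TPM over protein-coding genes, 109 by the alignment-free program and 85 by coding isoforms. No paired analysis was possible because the libraries form 1 group and no groups were compared. Order and ratios of the 18 members with under 10 alignment-based counts in both libraries are not resolved. Of the 18, 9 had at least 10 alignment-free counts in both, and the reason for this difference was not tested.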
